A study of Mus musculus with 62 samples.

Results

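Synj1, Itsn1, Synj2 and 7 partner genes of synaptic endocytosis were described in bulk RNA-seq of mouse brain. The members were chosen by symbol (Synj1, Itsn1, Synj2, Itsn2, Dnm1, Amph, Bin1, Sh3gl2, Snap91 and Picalm), and all 10 were found among the 27179 genes of both count tables and passed the filter on low counts in every comparison. Ts65Dn mice carry an extra, translocated chromosome with distal chromosome 16 and the proximal end of chromosome 17, and model Down syndrome. Synj1 and Itsn1 lie in the chromosome 16 segment and Synj2 in the chromosome 17 segment, whereas the other 7 members are not triplicated. The study asked what happens to expression in trisomic brain, and what happens when the copy number of Brwd1, another triplicated gene, is restored in otherwise trisomic animals.

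The E17.5 forebrain libraries comprised 8 euploid and 7 Ts65Dn embryos, whose sex the labels do not give. The hippocampus libraries came from 6-week-old mice. The males comprised 8 euploid, 7 Ts65Dn and 8 Ts65Dn;Brwd1+/- libraries, and the females 8 libraries of each genotype. All groups shared the mixed background DBA/2J x B6EiC3Sn/J. Ts65Dn;Brwd1+/- animals came from Ts65Dn females crossed with males heterozygous for the repro5 mutation of Brwd1, so that they kept the extra chromosome and its other genes. Euploid Brwd1+/- littermates were not analysed here. The chromosome 17 segment, with Synj2 on it, corresponds to no part of human chromosome 21. P-values measure the spread between these libraries, and the labels do not state which animals shared a litter.

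After neurotransmitter release, presynaptic membrane is taken back up through clathrin-coated pits. Snap91 (AP180) and its widely expressed relative Picalm (CALM) help assemble the clathrin coat, intersectins (Itsn1, Itsn2) are scaffolds that gather the other proteins, amphiphysin (Amph), Bin1 and endophilin (Sh3gl2) bind curved membrane, and the GTPase dynamin (Dnm1) cuts the vesicle free. Synaptojanins (Synj1, Synj2) then remove phosphates from the phosphoinositides of the vesicle membrane, which lets the coat come off, and endophilin brings synaptojanin to the site. SYNJ1 and ITSN1 lie on human chromosome 21 and have been studied for the enlarged endosomes of Down syndrome cells.

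In GRCm38 (mm10), Synj1 spans chr16:90936092-91013727 on the minus strand, Itsn1 chr16:91729310-91920591 on the plus strand and Synj2 chr17:5941280-6055766 on the plus strand. The promoter windows of these 3 genes are shown because they are the members that share a change in copy number and moved together in the adults. They were taken from RefSeq (GRCm38.p6), run 5′ to 3′ on the strand of the gene, and hold 250 bases before and 50 bases after an annotated start. Capitals mark each GGGCGG or CCGCCC, the GC box read on both strands.
Synj1, chr16:91011046-91011345, minus strand: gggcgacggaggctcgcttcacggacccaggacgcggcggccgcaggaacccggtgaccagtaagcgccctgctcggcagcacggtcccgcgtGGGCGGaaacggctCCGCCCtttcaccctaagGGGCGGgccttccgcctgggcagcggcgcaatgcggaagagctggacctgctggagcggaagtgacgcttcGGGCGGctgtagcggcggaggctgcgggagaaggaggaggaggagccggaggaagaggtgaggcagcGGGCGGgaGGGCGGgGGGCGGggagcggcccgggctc
Itsn1, chr16:91729121-91729420, plus strand: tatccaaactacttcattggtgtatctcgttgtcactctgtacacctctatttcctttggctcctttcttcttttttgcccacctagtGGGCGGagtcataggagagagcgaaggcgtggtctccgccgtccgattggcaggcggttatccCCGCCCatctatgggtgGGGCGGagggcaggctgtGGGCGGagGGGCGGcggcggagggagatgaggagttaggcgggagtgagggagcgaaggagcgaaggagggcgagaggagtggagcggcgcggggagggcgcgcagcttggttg
Synj2, chr17:5975330-5975629, plus strand: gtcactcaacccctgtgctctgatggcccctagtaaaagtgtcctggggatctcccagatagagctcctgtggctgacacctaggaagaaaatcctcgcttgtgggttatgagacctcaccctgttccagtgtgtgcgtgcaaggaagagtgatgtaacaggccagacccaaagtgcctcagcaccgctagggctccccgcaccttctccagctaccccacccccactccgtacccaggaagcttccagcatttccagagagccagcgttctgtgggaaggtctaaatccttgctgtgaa
The Synj1 window held 7 GC boxes and 36 CpG dinucleotides at 74.0% GC. The Itsn1 window held 5 GC boxes and 23 CpG dinucleotides at 61.7% GC. The Synj2 window held none of these letters and 6 CpG dinucleotides at 56.0% GC. Of 32851 promoter windows of the same length, 35.7% held the motif, and the median window had 7 CpG dinucleotides. A second annotated start of Synj1 upstream gave a window with 0 GC boxes, so the count depends on the start that is used. The Synj1 and Synj2 windows both lie inside the annotated span of the gene, at starts downstream of its outermost one.

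The libraries held 14.9 to 137.1 M counted reads. Forebrain and hippocampus markers were counted in all libraries of the tissue, although the summed forebrain markers of E17.5 Ts65Dn ranged from 286.5 to 1520 CPM (counts per M counted reads) against 935.6 to 1891 in euploid embryos, and the summed choroid plexus markers of the adults ranged from 36.8 to 6349 CPM. In 4 adult libraries the other triplicated genes sat at the euploid level (male Ts65Dn replicate 1, male Ts65Dn;Brwd1+/- replicates 2 and 8, female Ts65Dn;Brwd1+/- replicate 3), and male Ts65Dn replicate 7 and female euploid replicate 7 expressed the sex genes of the other sex. These 6 libraries go against their labels. Female euploid replicate 2 and female Ts65Dn;Brwd1+/- replicate 7 stood apart from their groups, with a median absolute log2 difference over genes of 0.39 and 0.32 against at most 0.175 in the other adult libraries. Both were also lowest in their group in the hippocampus markers, at a mean log2 CPM of 5.37 and 5.27 against group medians of 6.30 and 6.10. Calls that changed without these libraries are given both ways.

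The members differed in level by orders of magnitude, and most were higher in adult hippocampus than in E17.5 forebrain. Levels per length are given as RPKM, reads per kilobase of all annotated exons and M counted reads, in the 8 euploid libraries of each kind. In male euploid hippocampus Dnm1, the neuronal dynamin, was highest at a median of 359.0 RPKM, and no other member's range reached it. Synj1 (78.8), Bin1 (76.4) and Amph (66.0) followed with overlapping ranges, then Snap91 (51.2) and Sh3gl2 (49.0), whose ranges also overlapped. Synj2 and Itsn1 both stood at 9.5, and Picalm (4.49) and Itsn2 (4.43) were lowest, each pair with overlapping ranges. With the longest coding transcript in place of all exons, Synj1 moved from rank 2 to rank 5, so that only the distance between Dnm1, the middle group and the last 4 genes holds on either length.

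In female euploid hippocampus the same genes made up the middle group, with Bin1 at a median of 85.0 RPKM and Synj1 at 71.2. In E17.5 euploid forebrain Dnm1 had a median of 56.1 RPKM, Synj1 23.4, Itsn1 13.2 and Synj2 0.49. The ratios of the male adult median RPKM to the embryonic median were 19.3 for Synj2, 6.40 for Dnm1 and 3.37 for Synj1. They lay between 1.66 and 2.90 for Itsn2, Amph, Bin1, Sh3gl2 and Snap91. Itsn1 and Picalm were the 2 members with a lower median in the adult, at 0.72 and 0.65 of the embryonic level. Tissue, age and normalization all differ between the tables, so these ratios set levels side by side and were not tested.

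**Figure D1:**
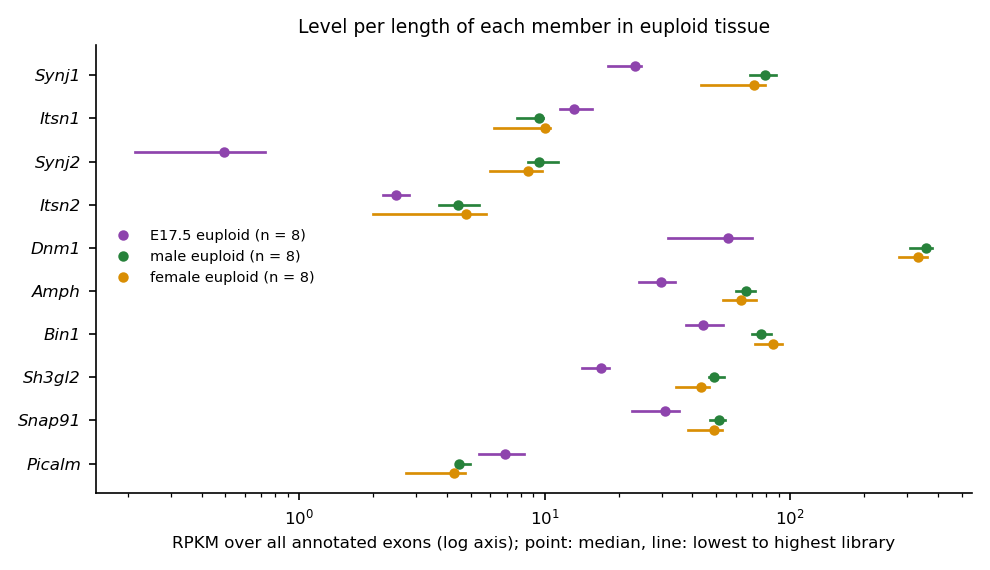
Level per length (RPKM, log axis) of the 10 members in euploid E17.5 forebrain and in male and female adult hippocampus, 8 libraries each, with the median as a point and the lowest to highest library as a line. Dnm1 is highest in the adults at 359.0 and 332.7 RPKM, Synj2 is lowest in the embryo at 0.49, and Itsn1 and Picalm alone have lower medians in the adult than in the embryo.

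The level of each synaptojanin and intersectin was also set against its paralog in the same library. Synj1 exceeded Synj2 per length by 46.6 times (median of euploid embryos) and by 7.97 times in male euploid hippocampus. The ratio was much the same in trisomic tissue, with medians of 46.3 in Ts65Dn embryos, 8.39 in male Ts65Dn and 8.19 in female Ts65Dn, and both genes are triplicated. The ratio of Itsn1 to Itsn2 ranged from 4.77 to 5.87 in euploid embryos and from 7.44 to 9.40 in Ts65Dn embryos. Only Itsn1 of this pair is triplicated, and the groups did not overlap. In the adults they did, with 1.73 to 2.22 in euploid and 1.79 to 3.34 in Ts65Dn males, and 1.76 to 3.10 in euploid and 2.93 to 3.36 in Ts65Dn females. The lowest male Ts65Dn ratio was that of replicate 1 and the highest female euploid ratio that of replicate 2. Part of the exon sequence of Itsn2 (10.96%) overlaps an antisense transcript and 3.56% of that of Synj2 overlaps Serac1, and the library kit does not mark strand, so reads of these stretches cannot be assigned to one gene.

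In E17.5 forebrain, Synj1 and Itsn1 were higher in every Ts65Dn library than in any euploid library. Synj1 ranged from 146.8 to 198.9 CPM (median 189.0) in euploid embryos and from 220.5 to 326.1 (median 287.2) in Ts65Dn embryos. The log2 fold change was 0.63 ± 0.084 (SE), with an adjusted p of 0.00036 in edgeR's quasi-likelihood test across all genes. Itsn1 ranged from 270.6 to 366.0 CPM (median 308.2) in euploid and from 397.8 to 479.4 (median 436.8) in Ts65Dn embryos. Its log2 fold change was 0.47 ± 0.063, with an edgeR adjusted p of 0.00036. These were the 2 of 10 members that were differentially expressed (DE, adjusted p under 0.1), where 1.35% of all 16395 genes tested were DE. In bulk tissue a lower or higher number of cells of a type cannot be told apart from a lower or higher level per cell.

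Synj2 was barely expressed in the embryo. It ranged from 1.79 to 6.07 CPM (median 4.10) in euploid and from 5.15 to 8.04 (median 6.49) in Ts65Dn embryos, with as few as 34 and 104 reads in a library of the respective group. Its log2 fold change of 0.70 ± 0.19 missed the threshold in edgeR at an adjusted p of 0.11 and passed it in DESeq2 at 0.012. Ts65Dn replicate 7, the embryo with the lowest forebrain markers, had 318.3 CPM of Synj1, and without it Synj1 and Itsn1 remained DE at log2 fold changes of 0.61 and 0.50.

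In male hippocampus all 3 triplicated members were DE in Ts65Dn vs. euploid (3 of 10 members, against 0.795% of all genes). Synj1 ranged from 557.5 to 710.9 CPM (median 636.8) in euploid males and from 574.7 to 1088 (median 957.0) in Ts65Dn males, with a log2 fold change of 0.47 ± 0.12 (edgeR adjusted p = 0.072). Itsn1 ranged from 180.8 to 230.3 CPM (median 221.7) in euploid and from 236.6 to 358.7 (median 332.5) in Ts65Dn males, a log2 fold change of 0.54 ± 0.093 (edgeR adjusted p = 0.0097). Synj2 ranged from 71.2 to 94.7 CPM (median 79.1) in euploid and from 70.2 to 133.7 (median 115.4) in Ts65Dn males, a log2 fold change of 0.47 ± 0.11 (edgeR adjusted p = 0.071). The low ends of Synj1 and Synj2 in Ts65Dn both came from replicate 1, one of the libraries against its label. For Itsn1 that library also was lowest of its group, but stood above every euploid male.

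Without the libraries against their labels (5 Ts65Dn and 8 euploid males left), the lowest Ts65Dn males stood at 876.1 CPM of Synj1, 318.9 of Itsn1 and 105.4 of Synj2, above every euploid male. The log2 fold changes became 0.60 ± 0.062, 0.63 ± 0.048 and 0.59 ± 0.061, with all 3 DE in edgeR. In this setting 1.54% of all genes and 84 of 131 other triplicated genes were DE. Replicate 1 was left out for the low level of other genes in the same segments. A rise of the 3 members was thus built into this step. The summed choroid plexus markers had a median of 141.4 CPM in Ts65Dn against 1095 in euploid males. With these markers as a covariate the log2 fold changes were nearly as large, at 0.43 for Synj1, 0.51 for Itsn1 and 0.44 for Synj2, although the edgeR adjusted p of both synaptojanins rose to 0.12 and missed the threshold.

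In female hippocampus the 3 triplicated members were higher in Ts65Dn as well, with the larger fold changes for the synaptojanins. Their 95% intervals overlap that of Itsn1, and the difference between the genes was not tested. Synj1 ranged from 351.9 to 641.5 CPM (median 576.0) in euploid and from 777.5 to 1074 (median 940.6) in Ts65Dn females. Its log2 fold change was 0.79 ± 0.12 (edgeR adjusted p = 0.00052). Synj2 ranged from 49.8 to 81.4 CPM (median 71.0) in euploid and from 107.3 to 135.3 (median 120.0) in Ts65Dn females. Every Ts65Dn female thus stood above every euploid female for both genes. The log2 fold change of Synj2 was 0.78 ± 0.11 (edgeR adjusted p = 0.00027). Itsn1 ranged from 145.0 to 246.5 CPM (median 234.8) in euploid and from 279.0 to 370.9 (median 321.2) in Ts65Dn females, with a log2 fold change of 0.53 ± 0.11 (edgeR adjusted p = 0.0092).

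With Sh3gl2, which is described further on, 4 of 10 members were DE in females, against 3.17% of all genes. The lowest euploid value of all 3 triplicated members came from replicate 2, the library that stood apart. Without that library and the Ts65Dn;Brwd1+/- library that stood apart, an alternative added after seeing the data, the log2 fold changes were 0.72 for Synj1, 0.46 for Itsn1 and 0.72 for Synj2, and all 3 remained DE, while the share of all genes that were DE rose to 17.4%. The summed choroid plexus markers had a median of 607.2 CPM in Ts65Dn against 2049 in euploid females, and with them as a covariate the values were 0.78, 0.53 and 0.77, all DE.

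**Figure D2:**
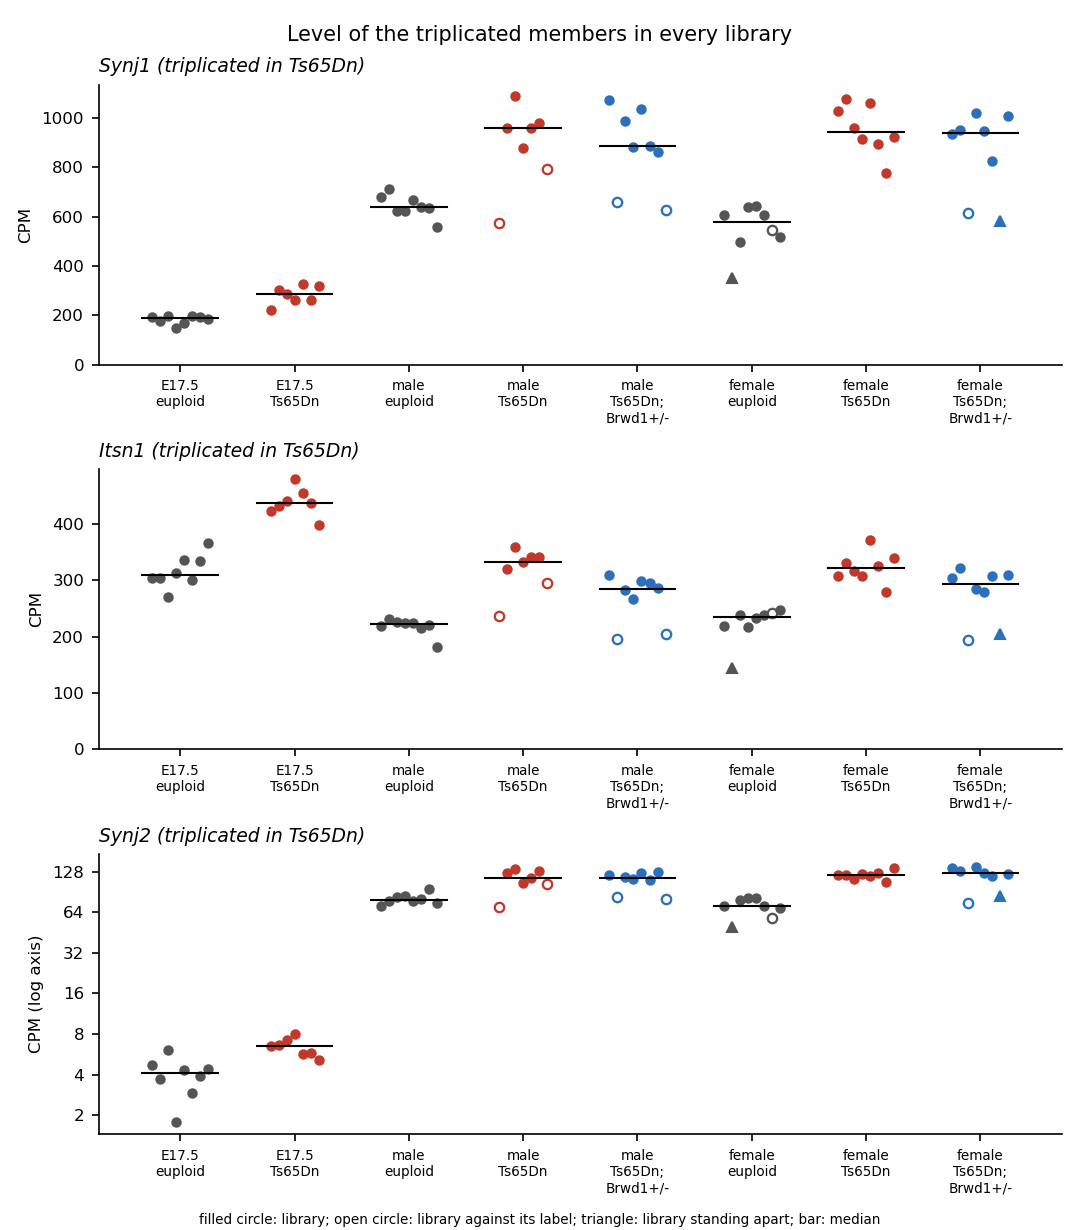
CPM of Synj1, Itsn1 (linear axes) and Synj2 (log axis) in each library of the 8 groups, with the group median as a bar, open circles for libraries against their labels and triangles for the 2 libraries that stood apart. Ts65Dn libraries lie above all euploid libraries of their kind for Synj1 and Itsn1 in the embryo and in females, and the open circles of the trisomic groups lie near the euploid level, except for male Ts65Dn replicate 7.

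These changes were read against those of the other genes in the triplicated segments. A ratio of 3 to 2 copies corresponds to a log2 value of 0.58. The median log2 fold change of the other triplicated genes was 0.56 at E17.5 (130 genes, 81 DE), 0.50 in males (130 genes, 70 DE) and 0.52 in females (131 genes, 83 DE), while the median over all genes tested lay between -0.02 and 0.00. Synj1 exceeded 65.4% of the other triplicated genes at E17.5, 38.5% in males and 90.1% in females. Synj2 exceeded 76.9%, 38.5% and 88.5%, respectively. Itsn1 exceeded 23.8%, 65.4% and 51.1%. With the libraries against their labels left out, the male values were 61.8% for Synj1, 61.1% for Synj2 and 72.5% for Itsn1, so that the male rank of the synaptojanins depends on those libraries. In females the same step gave 88.5%, 86.3% and 52.7%, and both synaptojanins ranked near the top of the segment with or without those libraries. Female euploid replicate 2, the library that stood apart, was lowest of its group for both. Their ranks without it were not computed.

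Whether the synaptojanins differed more in females was tested directly. The interaction of sex and genotype (female minus male log2 fold change of Ts65Dn vs. euploid) was 0.32 ± 0.17 for Synj1 and 0.31 ± 0.16 for Synj2, with edgeR adjusted p-values of 0.50 and 0.49, and -0.01 ± 0.14 for Itsn1. Without the libraries against their labels these values were 0.20 and 0.16 for the synaptojanins. The difference between the sexes was thus not shown for these genes.

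The restoration of Brwd1 copy number was compared next. None of the 10 members was DE in Ts65Dn;Brwd1+/- vs. Ts65Dn in either sex by edgeR, where 0% of all genes were DE. Brwd1, the gene the cross alters, was thus not called either, and the libraries against their labels were included. The lack of calls therefore does not show that the members were unchanged. The paper did report DE genes in this comparison of males, using DESeq2 after a normalization for unwanted variation. For females it reported a smaller rescue of expression changes. At an unadjusted p under 0.05 the counts were 2 members in males and 1 in females, against 7.48% and 3.52% of all genes, and DESeq2 with its size factors also called 0. Synj1 ranged from 627.2 to 1073 CPM (median 884.3) in male and from 583.9 to 1019 (median 940.1) in female Ts65Dn;Brwd1+/- mice. Its log2 fold changes against Ts65Dn were -0.02 ± 0.12 and -0.14 ± 0.12. Synj2 ranged from 79.7 to 126.2 CPM (median 115.0) in males and from 75.2 to 138.4 (median 124.2) in females, with log2 fold changes of -0.03 ± 0.11 and -0.04 ± 0.11. The 95% intervals allow differences in either direction, from -0.26 to 0.22 for Synj1 in males and from -0.39 to 0.11 in females.

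Itsn1 gave the lowest values of the 3 triplicated members in this comparison. It ranged from 196.1 to 309.8 CPM (median 284.5) in male and from 193.2 to 320.9 (median 293.5) in female Ts65Dn;Brwd1+/- mice, overlapping the Ts65Dn range of both sexes. The log2 fold change against Ts65Dn was -0.25 ± 0.093 in males (edgeR adjusted p = 0.63) and -0.22 ± 0.11 in females (edgeR adjusted p = 0.9999). Itsn1 exceeded 10% of the other triplicated genes in males and 9.16% in females, whose median was -0.06 in both sexes. The call depended on the method, since DESeq2 with 3 RUVr factors (factors of unwanted variation taken from residuals) called Itsn1 in males at an adjusted p of 0.029 and in females at 0.024. On simulated counts that path also made more false calls than its threshold allows. Those counts held no unwanted variation between libraries, which the factors are meant to take out, so they cannot decide this call.

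Without the libraries against their labels, the male groups no longer overlapped. Itsn1 stood at 267.1 to 309.8 CPM in 6 Ts65Dn;Brwd1+/- and 318.9 to 358.7 CPM in 5 Ts65Dn libraries. The log2 fold change was -0.22 ± 0.051 (edgeR adjusted p = 0.43). How many other genes separated in the same way was not counted. Itsn1 then exceeded 7.63% of the other triplicated genes, whose median was 0.01. In females the same step gave -0.17 ± 0.10, and -0.10 ± 0.053 once the libraries that stood apart were left out too, so the female value rests in part on those libraries.

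**Figure D3:**
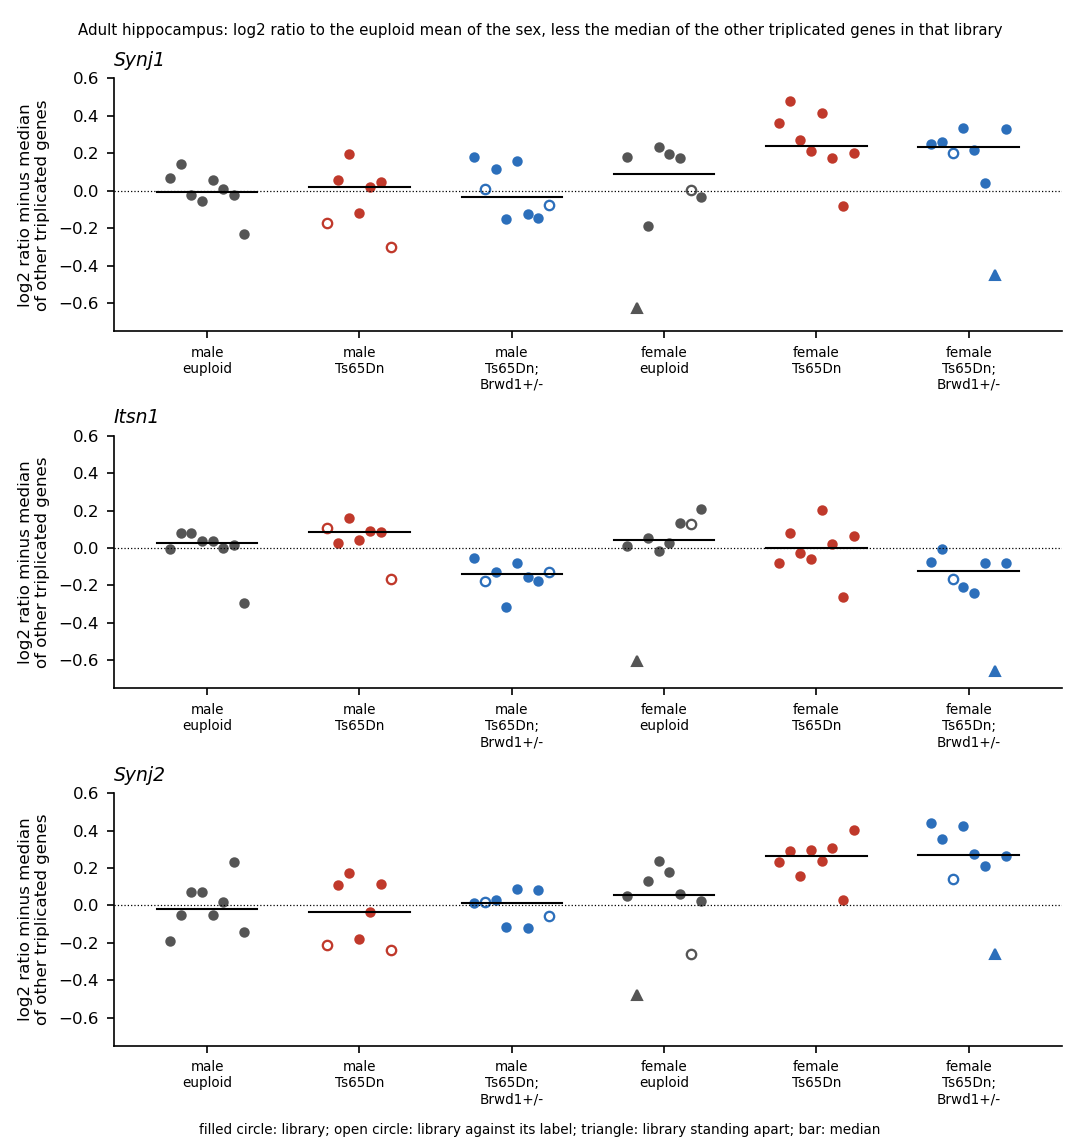
Log2 ratio of Synj1, Itsn1 and Synj2 to the euploid mean of the sex, less the median of all further triplicated genes in that library, for each adult library, with the group median as a bar. For Itsn1 the medians are -0.14 and -0.13 in male and female Ts65Dn;Brwd1+/- libraries against 0.08 and -0.00 in Ts65Dn, and every Ts65Dn;Brwd1+/- library lies below 0.

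Set against its own segment in each library, Itsn1 was below the median of the other triplicated genes in all 16 Ts65Dn;Brwd1+/- libraries, from -0.31 to -0.05 in males and from -0.66 to -0.00 in females. This measure takes out much of the effect of a library whose trisomic dosage was lacking. Such libraries are among the 16, at -0.17 and -0.13 in males and -0.17 in the female. In adult Ts65Dn the measure ranged from -0.16 to 0.16 in males and from -0.26 to 0.20 in females, so that the groups overlapped in both sexes. In E17.5 Ts65Dn embryos, whose Brwd1 copy number was not restored, it was also mostly below 0, from -0.26 to 0.05 (median -0.13). How many other triplicated genes show a like offset was not counted. Synj1 and Synj2 showed no such offset in males, with medians of -0.03 and 0.01 in Ts65Dn;Brwd1+/- and 0.02 and -0.03 in Ts65Dn. These offsets were not tested.

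Ts65Dn;Brwd1+/- animals were also compared with euploid animals. In males Synj1 was the only member that was DE, at 0.45 ± 0.11 (edgeR adjusted p = 0.093, with 0.576% of all genes DE), while Itsn1 at 0.30 ± 0.090 and Synj2 at 0.44 ± 0.11 had adjusted p-values of 0.19 and 0.10. Without the libraries against their labels all 3 were DE in edgeR, at 0.57, 0.41 and 0.56. In this setting 1.83% of all genes and 82 of 131 other triplicated genes were DE. Libraries lacking trisomic dosage were left out by that rule, so a rise of the 3 members was built in here too. In females Synj1 at 0.65 ± 0.12 and Synj2 at 0.73 ± 0.11 were DE (2 members, 0.729% of all genes), and Itsn1 at 0.31 ± 0.11 was not. Itsn1 in females was DE without the 2 libraries that stood apart, at 0.29, where 4.44% of all genes were DE. These comparisons share their euploid and trisomic libraries with those above and are no independent evidence.

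Of the 7 members that are not triplicated, Sh3gl2 was DE in Ts65Dn vs. euploid females (1 of 7, against 3.17% of all genes), and edgeR on all libraries, without RUVr factors or covariates, called none of them in the other comparisons. Sh3gl2, endophilin A1, ranged from 224.3 to 304.9 CPM (median 284.2) in euploid and from 294.7 to 370.0 (median 338.5) in Ts65Dn females. The log2 fold change was 0.27 ± 0.061 (edgeR adjusted p = 0.024), and 7 of 8 Ts65Dn libraries lay above the highest euploid library. In males it ranged from 305.8 to 351.9 CPM (median 320.8) in euploid and from 263.2 to 345.8 (median 317.9) in Ts65Dn, with a log2 fold change of -0.06 ± 0.055. The interaction of sex and genotype was 0.33 ± 0.084, with an edgeR p of 0.00027 and an adjusted p of 0.23 over all genes. Over 17427 genes this test called 0 (0%), with 11.1% at an unadjusted p under 0.05. Sh3gl2 passed the threshold in 5 of 11 alternatives, at values between 0.33 and 0.39. These included DESeq2 with and without RUVr factors and edgeR with 1 RUVr factor. The others were edgeR among the animals with B identifiers and edgeR without the 2 female libraries that stood apart. Without the libraries against their labels it missed the threshold, at 0.31 ± 0.090 (edgeR adjusted p = 0.42). With the libraries that stood apart left out as well, 0 members were called. The shares of all genes called by the RUVr paths are given in the last section.

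The levels behind this difference were as follows. The euploid median was 284.2 CPM in females and 320.8 in males, whereas those of Ts65Dn were 338.5 and 317.9. Euploid females 3 and 8 were lowest, at 224.3 and 228.1 CPM, with the other 6 at 283.3 or above. Both were also lowest of their group in the neuron markers, at a mean log2 CPM of 9.43 and 9.51 against a group median of 9.60. The summed neuron markers had medians of 7119 CPM in euploid and 7644 CPM in Ts65Dn females. Their part in the result was not tested. In Ts65Dn;Brwd1+/- females Sh3gl2 had a median of 313.4 CPM, 0.18 ± 0.061 above euploid on the log2 scale (edgeR adjusted p = 0.24) and -0.08 ± 0.061 against Ts65Dn.

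Amph, the amphiphysin of nerve terminals, was close to the threshold in females. It ranged from 240.8 to 328.1 CPM (median 285.0) in euploid and from 299.0 to 373.8 (median 313.1) in Ts65Dn females, a log2 fold change of 0.20 ± 0.063 (edgeR adjusted p = 0.105). The groups overlapped, and Amph was DE in 8 of 12 alternatives, DESeq2 and upper-quartile normalization among them. In males its log2 fold change was 0.08 ± 0.051 and at E17.5 0.14 ± 0.065.

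Snap91 had log2 fold changes of 0.14 ± 0.095 at E17.5, 0.01 ± 0.047 in males and 0.16 ± 0.064 in females, with edgeR adjusted p-values of 0.55, 0.98 and 0.22. Dnm1, the most abundant member, gave 0.18 ± 0.18, -0.03 ± 0.064 and 0.12 ± 0.059. For Picalm the values were -0.02 ± 0.082, 0.00 ± 0.033 and 0.10 ± 0.088, so that in males a difference beyond 0.07 on the log2 scale lay outside the 95% interval. Bin1 stood at 0.00 ± 0.080, 0.14 ± 0.048 and 0.03 ± 0.065, with an edgeR adjusted p of 0.30 in males.

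Itsn2, the paralog of Itsn1 that is not triplicated, was not DE, at -0.16 ± 0.063 in the embryo (edgeR adjusted p = 0.33), 0.05 ± 0.070 in males and -0.09 ± 0.16 in females. The libraries that stood apart were far lower than their groups: female euploid replicate 2 had 27.1 CPM against a group median of 65.0, and female Ts65Dn;Brwd1+/- replicate 7 had 28.7 CPM against 60.7. Without them Itsn2 was DE in Ts65Dn vs. euploid females, at -0.20 ± 0.059 (edgeR adjusted p = 0.038), in an alternative added after seeing the data. Together with the libraries against their labels left out, 7 members were DE in females, with Itsn2 lower and Synj1, Itsn1, Synj2, Sh3gl2, Amph (0.20) and Snap91 (0.15) higher, while 11.2% of all genes were DE.

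**Figure D4:**
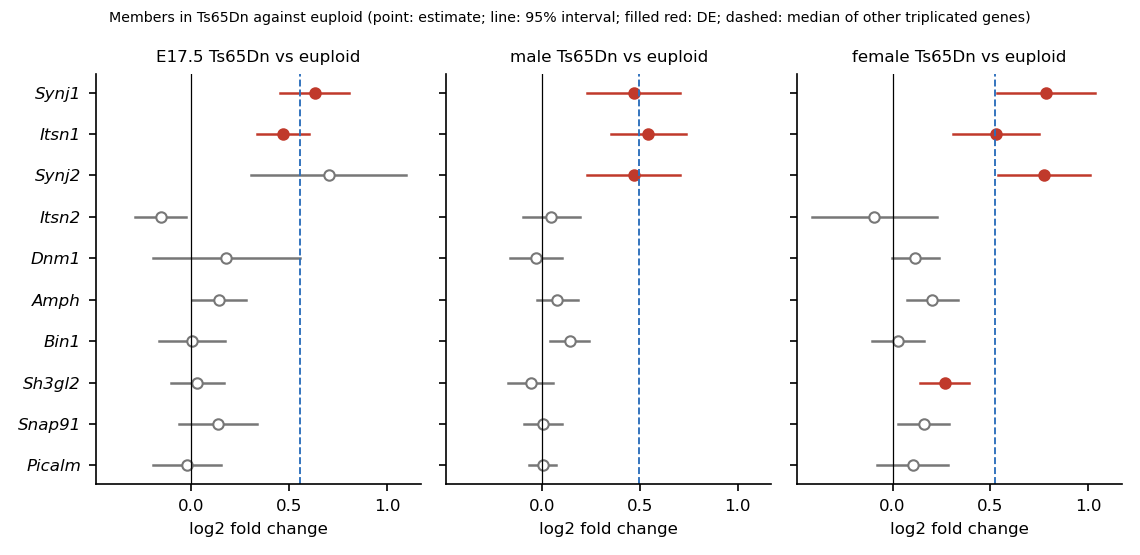
Log2 fold changes of the 10 members in Ts65Dn vs. euploid, with 95% intervals, at E17.5 and in male and female hippocampus, filled red where DE, and the median of the other triplicated genes as a dashed line (0.56, 0.50 and 0.52). At E17.5 and in males the intervals of the 3 triplicated members include the dashed line, in females those of Synj1 (0.79) and Synj2 (0.78) lie above it, and Sh3gl2 in females is at 0.27.

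**Figure D5:**
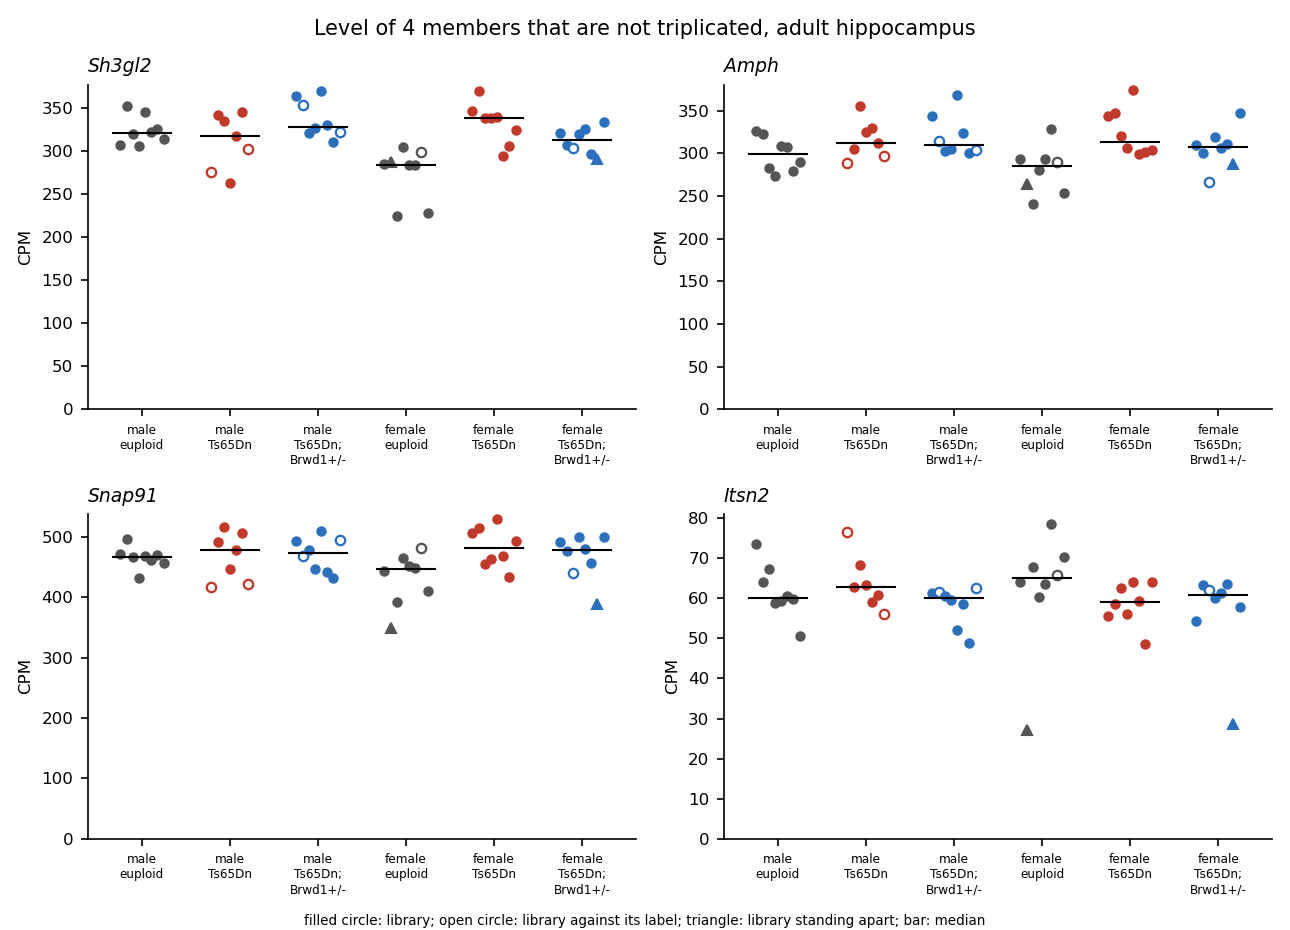
CPM of Sh3gl2, Amph, Snap91 and Itsn2 in each adult library, with the group median as a bar, open circles for libraries against their labels and triangles for the 2 libraries that stood apart. The median of Sh3gl2 is 284.2 in euploid and 338.5 in Ts65Dn females, and both triangles lie far below their groups for Itsn2 (27.1 and 28.7).

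The members were set beside 49 further genes of clathrin-mediated endocytosis in 8 lists, all of which were tested. Few of them changed. At E17.5, 2 of 49 were DE and higher (1.1% of all genes were DE and higher) and none lower, with a list median of 0.02 against -0.01 over all genes. These were Snx9, a membrane-bending protein that binds dynamin, at 0.76 ± 0.12, and Dab2, a cargo adaptor of non-neuronal cells, at 0.54 ± 0.13. Snx9 itself lies in the triplicated chromosome 17 segment. Beside Dab2, the summed choroid plexus markers had medians of 893.1 CPM in euploid and 1264 CPM in Ts65Dn embryos, and their part in the result was not tested.

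In males 1 of 49 was DE in Ts65Dn vs. euploid, Snx9 at 0.42 ± 0.098 (0.671% of all genes were DE and higher), and it was also DE in Ts65Dn;Brwd1+/- vs. euploid at 0.39 ± 0.095. When the libraries against their labels were left out, 2 of 49 were DE in Ts65Dn males, against 1.54% of all genes. Pacsin1, a membrane-bending protein of synapses, was added at 0.18 ± 0.048 (edgeR adjusted p = 0.077). In females 4 of 49 were DE and higher (1.94% of all genes) and none lower. Snx9 stood at 0.49 ± 0.11, Ap2a2, a subunit of the AP2 adaptor that links cargo to clathrin, at 0.32 ± 0.064, Inpp5f, a phosphoinositide phosphatase, at 0.19 ± 0.044, and Necap1, an AP2-binding protein, at 0.14 ± 0.039. All 9 genes of the clathrin and AP2 list had log2 fold changes above 0 in females, but only Ap2a2 and Necap1 were DE. Their median was 0.14, against -0.02 over all genes, and the share of all genes above 0 was not counted. The summed neuron markers were also higher in Ts65Dn than in euploid females, at medians of 7644 and 7119 CPM. Their part in the shared direction was not tested. Without the libraries against their labels Snx9, Ap2a2 and Inpp5f stayed DE in Ts65Dn females. Necap1 missed the threshold at 0.14 (edgeR adjusted p = 0.12). Snx9 was then DE in Ts65Dn;Brwd1+/- vs. euploid females at 0.44 (edgeR adjusted p = 0.095). That step left out a Ts65Dn;Brwd1+/- library that lacked trisomic dosage. In the lists of uncoating and actin genes edgeR called none in the 3 comparisons of Ts65Dn with euploid. In females 1 gene of each had an unadjusted p under 0.05, a count with no share of all genes beside it. Between Ts65Dn;Brwd1+/- and Ts65Dn none of the 49 was DE by edgeR in either sex. At an unadjusted p under 0.05 the counts were 5 in males and 0 in females, against 7.48% and 3.52% of all genes.

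Last, the genes whose log2 CPM varied most like that of Synj1 and Itsn1 were listed, as a description over libraries that share genotypes and depth differences. Over the 47 adult libraries the 5 closest to Synj1 were Dyrk1a (r = 0.94), Ltn1 (0.94), Ttc3 (0.94), Synj2 (0.93) and Scaf8 (0.93). Those closest to Itsn1 were Brwd1 (r = 0.96), Dop1b (0.94), Dscam (0.93), Scaf8 (0.93) and Ltn1 (0.93). All of these lie in the triplicated segments. Brwd1, the gene whose copy number the cross lowers, ranked first for Itsn1 and was not among the 5 closest to Synj1. The libraries include the Ts65Dn;Brwd1+/- groups, in which Itsn1 also had its lower values. The rank cannot be told apart from that group difference and adds no evidence to it. Among the embryonic libraries, which lack that genotype, Brwd1 was not among the 5 closest to Itsn1.

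Over the 15 embryonic libraries the 5 closest were App (0.97), Dop1b (0.96), C2cd2 (0.95), Kcnj6 (0.93) and Jam2 (0.93) for Synj1, and Scaf8 (0.96), Bach1 (0.96), Tulp4 (0.95), Pde10a (0.95) and Dyrk1a (0.95) for Itsn1, again all triplicated. Among the members that are not triplicated, Amph (0.76) and Snap91 (0.73) were closest to Synj1 in the adult, and Bin1 (0.13) was farthest.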

How the data were processed

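The authors aligned reads to mm10 with HISAT2 and obtained gene counts from featureCounts 2.0.1. They deposited raw counts per gene, as whole numbers without normalization, for 27179 genes with Entrez identifiers. The paper and the submitters' processing notes give different HISAT2 versions, and the notes also name mm9. The kit (TruSeq RNA V2) does not keep strand, and reads of 2 flow cells were joined. The members and lists were chosen with earlier results of these data known. Symbols and positions came from RefSeq (25275 genes matched), exon lengths from GENCODE. The segments were taken from Mrpl39 on chromosome 16 to its end and up to Pde10a on chromosome 17.

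Counts were tested with edgeR 4.0.16 in R 4.3.3 (TMM factors, the low-count filter filterByExpr at a minimum of 10, and the quasi-likelihood test with robust estimation), with Benjamini-Hochberg adjustment over all genes and DE at an adjusted p under 0.1. One model per sex held its 3 genotypes, and interactions used all 47 adult libraries. CPM used TMM factors, and log2 CPM a prior count of 0.5. The SE is the fold change over the root of F. A library was taken to go against its label where the median log2 ratio of the other triplicated genes was under 0.29 in a trisomic group, or where Xist and Ddx3y gave the other sex. No pair of libraries of a group agreed within sampling noise (chi-square per degree of freedom at least 8.73). Named genes were all members, the DE genes of the endocytosis lists (at most 5 in each direction) and the 5 genes most correlated with Synj1 and with Itsn1. Each path was tested on simulated data with known changes: all recovered the folds, edgeR kept its share of false calls under the threshold, and DESeq2 1.42.0, with or without RUVr factors, exceeded it. The simulated counts took their spread from edgeR and held no unwanted variation between libraries, so they do not rank the tools for these data. Alternatives were other normalizations, filters and tools, covariates and subsets of libraries.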

Additional observations from a re-analysis of the deposited data

Results flagged for a closer look

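In 10 of 80 sets of a member and a group, 1 library lay far from the others on the log2 CPM scale by Dixon's ratio, which chance gives in about 1 of 20. The same 2 libraries, those that stood apart, account for most of them. Female euploid replicate 2 was lowest for Synj1 (351.9 CPM, group median 576.0), Itsn1 (145.0 against 234.8), Itsn2 (27.1 against 65.0) and Picalm (42.8 against 67.2). Female Ts65Dn;Brwd1+/- replicate 7 was lowest for Itsn2 (28.7 against 60.7) and Picalm (50.04 against 70.1). Male Ts65Dn replicate 1, whose triplicated genes sat at the euploid level, was lowest for Synj2 (70.2 against 115.4). In euploid males, replicate 8 was lowest for Itsn1 (180.8 against 221.7) and replicate 2 highest for Picalm (77.9 against 70.6). Female euploid replicate 3 was lowest for Dnm1 (1452 against 1746).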

How the results depend on the processing

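No value of a member changed sign among results that were DE. Of 132 values of DE members under an alternative, 125 stayed DE and 7 did not (Synj1 4, Synj2 3), all with the same direction, and of 848 values that were not DE, 58 became DE. The number of DE members moved as follows, with the cause not tested. With DESeq2 and 3 RUVr factors it was 7 at E17.5 (from 2), 8 in Ts65Dn vs. euploid females (from 4), 4 in Ts65Dn;Brwd1+/- vs. euploid males (from 1), 7 in the same comparison of females (from 2), 2 in Ts65Dn;Brwd1+/- vs. Ts65Dn males (Itsn1 -0.24 and Sh3gl2 0.12, from 0), 1 in females (Itsn1 -0.23, from 0), and 4 and 1 in the interactions of sex with Ts65Dn vs. euploid and with Ts65Dn;Brwd1+/- vs. Ts65Dn (from 0). The same path called 24.1% of all genes at E17.5, 25.4% in Ts65Dn vs. euploid females, 7.64% and 20.6% in Ts65Dn;Brwd1+/- vs. euploid males and females, 5.63% and 4.9% in Ts65Dn;Brwd1+/- vs. Ts65Dn, and 14.8% and 1.29% in the interactions. With edgeR and 1 RUVr factor it was 4 at E17.5, 2 in Ts65Dn;Brwd1+/- vs. euploid males, 4 in females and 1 in the first interaction (Sh3gl2), against 8.72%, 1.82%, 8.64% and 2.48% of all genes. With DESeq2 alone it was 3 in Ts65Dn;Brwd1+/- vs. euploid males and 1 in that interaction. On simulated counts DESeq2 made more false calls than its threshold allows, with and without these factors, whereas edgeR did not. Those counts held no unwanted variation between libraries, so they do not decide which calls hold here.

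At an adjusted p under 0.05, 1 member was DE in Ts65Dn vs. euploid males (from 3) and 0 in Ts65Dn;Brwd1+/- vs. euploid males, and without a filter on low counts the latter was also 0. With choroid plexus markers as a covariate 1 member was DE in Ts65Dn vs. euploid males, with Synj1 and Synj2 at 0.43 and 0.44 against 0.47 each. In Ts65Dn;Brwd1+/- vs. euploid males 3 members were DE without the libraries against their labels (1.83% of all genes). That step leaves out libraries in which the other triplicated genes were low, so it favours higher values of triplicated members. The count was 3 among animals whose identifiers start with B and 2 when only the groups compared were fitted. The B animals alone gave 1 in the first interaction. In alternatives added after seeing the data, leaving out the 2 female libraries that stood apart gave 4 in Ts65Dn;Brwd1+/- vs. euploid females (4.44% of all genes). It gave 1 in that interaction. Without the libraries against their labels as well, 7 were DE in Ts65Dn vs. euploid females (11.2% of all genes). Again 4 were DE in Ts65Dn;Brwd1+/- vs. euploid females. Counts with no share of all genes beside them are not read as results about the members.

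The replicate block at E17.5 left 2 members DE. Same-numbered embryos correlated between -0.13 and 0.23 in their deviations from the group means, so the numbers do not pair the samples. Single replicates were not left out in turn, as the groups hold 7 or 8 libraries. Depth limits Synj2 in the embryo, with as few as 34 reads in a library.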
